A study of Mus musculus with 16 samples.

Results

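The comparison described here is that of astrocyte RNA from the striatum of mice with an edited Crym gene (Crym KO IP) and of mice without the edit (Control IP). It takes 8 of the 16 RNA-seq libraries of the series, the 4 Crym KO IP and the 4 Control IP libraries, each from a separate mouse. All mice were adult CAG-Cas9-EGFP animals, in which a ubiquitous promoter drives Cas9 and EGFP in every cell. Both groups received AAVs into the central striatum on both sides. In Crym KO mice 1 virus carried guide RNAs against Crym, and in Control mice, which the labels call WT, it carried a guide RNA against GFP, so both groups had active Cas9 cutting and both carried mCherry from the same astrocyte promoter, GfaABC1D. A second virus made astrocytes of both groups express Rpl22-HA, a tagged ribosomal protein, again under GfaABC1D, so that an antibody against HA could pull down ribosomes with the RNA bound to them (IP). The remaining 8 libraries are Input, RNA of the same lysates before the pull-down, and are used here only to set the IP values beside whole striatal tissue. The edit was local and limited to transduced cells, so unedited cells in the dissected tissue also gave RNA.

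Crym encodes μ-crystallin, a cytosolic protein of astrocytes in the central striatum that binds thyroid hormone with the help of NADPH and also has ketimine reductase activity in lysine breakdown. Astrocytes take up glutamate, GABA and potassium, pass ions and metabolites through gap junctions, and make the active thyroid hormone T3 from T4 through the deiodinase Dio2. A change in RNA pulled down with ribosomes can come from the amount of a transcript or from its loading onto ribosomes. In such bulk samples, fewer cells of a type and less RNA per cell cannot be told apart.

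The 8 IP libraries held 52632309 to 62596661 counts and 24487 to 25511 genes with at least 1 count, and 20645 genes passed the expression filter. Levels are given as CPM, counts scaled to the effective size of each library. The pull-down held astrocyte RNA: on the log2 scale of IP relative to Input, 20 astrocyte markers stood at a median of 2.09, against -4.88 for 15 microglia markers and -3.58 for 14 endothelial markers. Markers of ependymal cells (1.91) and striatal interneurons (1.75) stood nearly as high as those of astrocytes. Medium spiny neuron markers (0.54) and oligodendrocyte markers (0.19) were not depleted. By Xist and Ddx3y counts, mice 1 and 2 of each group were female and mice 3 and 4 male. Some Control IP libraries stood apart from the rest. Control IP 4 held 350.0 CPM in sum of 6 midbrain dopamine neuron genes, a list chosen after these values were seen, against 21.3 to 33.6 CPM in the other 7 libraries, and 178 CPM of choroid plexus markers, against 15.6 to 29.8 CPM in the other 3 Control IP libraries. The Input library of the same mouse was high too, with 1351 Slc6a3 counts against 6 to 15 in the other 7 Input libraries. Control IP 1 had the highest sum of interferon-induced genes, 2578 CPM, and Control IP 2 the lowest sum of astrocyte transcription factors, 934 CPM. Results that rest on Control mouse 4 are therefore also given without both of its libraries, an alternative added after the data were seen.

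Of the 20645 genes tested, 7 passed an adjusted p of 0.05 in limma, which is 0.0339% of the genes tested. Crym, Nts and Senp7 fell (3 genes, 0.0145%), and Abca14, Rpl22, Rpl22-ps1 and Gm13196 rose (4 genes, 0.0194%). At an unadjusted p under 0.05 stood 1583 genes (7.67%), 691 higher (3.35%) and 892 lower (4.32%) in Crym KO IP. In 564 genes (2.73%) the 4 Crym KO IP libraries did not overlap the 4 Control IP libraries, 250 of them higher (1.21%) and 314 lower (1.52%). The log2 fold change was above 0 in 51.4% of genes, with a median of 0.00387. Among 14761 genes with a mean of at least 1 CPM in the higher group, 94 had a fitted change of more than 2-fold and 219 of more than 1.5-fold, in either direction.

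**Figure D1:**
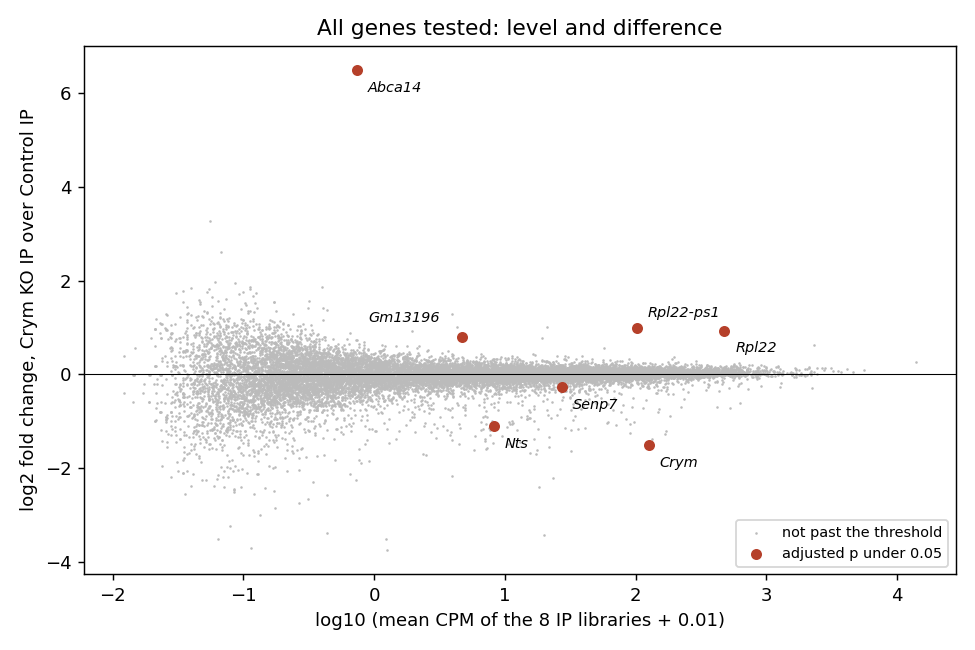
Log2 fold change of each gene in Crym KO IP over Control IP against its mean level in the 8 IP libraries (log10 of CPM with a small constant added), 1 point a gene. The 7 genes past an adjusted p of 0.05 in limma are named, with Abca14 at 6.4998 and Crym at -1.52, while most genes lie close to 0.

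The precision depended on the level. The median SE of the log2 fold change was 0.39 for 6004 genes under 1 CPM, 0.13 for 4409 genes at 1 to 10 CPM, 0.06 for 7677 genes at 10 to 100 CPM and 0.05 for 2555 genes over 100 CPM. The 95% interval of the change lay within 1.5-fold in either direction for 7.13% of the genes under 1 CPM, for 80.2% at 1 to 10 CPM, for 97.2% at 10 to 100 CPM and for 98.8% above 100 CPM. Among the 1575 genes that the pull-down raised more than 2-fold over Input, the median log2 fold change was 0.04, 59.7% were above 0, 4 passed and 11.5% had an unadjusted p under 0.05. Among 4280 genes that it lowered more than 2-fold, none passed and 7.41% had an unadjusted p under 0.05.

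Crym, the targeted gene (ENSMUSG00000030905, chr7:120186380-120202111, minus strand of GRCm38), was read first. It had 68.6, 66.0, 47.9 and 76.0 CPM in Crym KO IP 1 to 4, against 222, 125, 189 and 213 CPM in Control IP 1 to 4. Every Crym KO IP library lay below every Control IP library. Crym fell to 34.9% of its Control level (log2 fold change -1.52, SE 0.16, limma adjusted p = 0.000514, 95% interval -1.86 to -1.18), and an exact two-sided permutation test over the mice gave p = 0.0286, the smallest that 70 arrangements allow. In Input the log2 fold change was -0.34 (limma adjusted p = 0.730). Over 23 alternatives the adjusted p in IP ranged from 1.55e-18 to 0.258. The fall missed the threshold when the 8 IP libraries were fitted alone (adjusted p = 0.0621) and within 2 against 2 females (adjusted p = 0.258) or males (adjusted p = 0.230).

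Abca14, which codes for an ABC-type transporter (chr7:120203961-120325352, plus strand), had the largest fold change of the genes at 1 CPM or more in the higher group. It starts 1850 bp from the 5′ start of Crym and runs away from it on the opposite strand. Abca14 had 1.54, 1.68, 1.41 and 1.14 CPM in Crym KO IP 1 to 4, against 0, 0.0170, 0 and 0.0204 CPM in Control IP 1 to 4. These were 318 counts in sum in Crym KO IP and 2 counts in Control IP, a ratio of 158 with a 95% interval of 43.3 to 1307 that covers counting error only. The fitted log2 fold change of 6.4998 (SE 0.66, limma adjusted p = 0.000514) depends on the small count that the fit adds. The gene was read in the Crym KO Input libraries as well, with 16, 15, 46 and 17 counts, against 0, 0, 3 and 0 counts in Control Input (limma adjusted p in Input = 0.0329). Of the 18 tested genes within 500 kb of Crym, none beside Crym and Abca14 passed, and Anks4b, which lies 794 bp from Crym on the other side, was at 0.229 CPM in Crym KO IP and 0.151 CPM in Control IP (log2 fold change 0.81, SE 0.50, limma adjusted p = 0.738). Tmem159 had the next smallest p (log2 fold change 0.25, SE 0.11, limma adjusted p = 0.626).

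Rpl22 encodes the ribosomal protein whose tagged form was delivered by virus. Reads of the transgene and of the mouse's own Rpl22 cannot be told apart in gene counts. Rpl22 had 714, 704, 598 and 496 CPM in Crym KO IP 1 to 4, against 350.3, 342, 280.5 and 336 CPM in Control IP 1 to 4. The groups did not overlap, and Rpl22 rose 1.91-fold (log2 fold change 0.93, SE 0.12, limma adjusted p = 0.00367), while Input had a log2 fold change of 0.23. The mouse genome also holds processed copies of Rpl22 that differ from it by few bases. To show how close they are, bases 61 to 120 of the coding sequence of Rpl22 (GENCODE transcript, gene at chr4:152325742-152334071 of GRCm38, plus strand) and the same stretch of 4 copies are given, with capitals at bases that differ from Rpl22.
Rpl22: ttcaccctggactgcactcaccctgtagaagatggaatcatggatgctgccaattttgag
Rpl22-ps1 (chrX:8038611-8038996, minus strand): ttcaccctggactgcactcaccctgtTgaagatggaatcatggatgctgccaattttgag
Gm12005 (chr11:14162079-14162457, plus strand): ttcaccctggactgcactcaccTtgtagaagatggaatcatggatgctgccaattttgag
Gm13196 (chr2:4700238-4700616, plus strand): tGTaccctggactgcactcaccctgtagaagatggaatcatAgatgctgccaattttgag
Gm9457 (chr8:4812817-4813434, minus strand): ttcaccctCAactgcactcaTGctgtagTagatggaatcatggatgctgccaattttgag

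Over the 384 coding bases, identity with Rpl22 was 94.5% for Rpl22-ps1, 94.5% for Gm12005, 90.6% for Gm13196 and 89.8% for Gm9457, and 70.3% for Rpl22l1, the paralog that makes a protein of its own. The longest runs identical to Rpl22 were 92, 72, 62 and 84 bases in Rpl22-ps1, Gm12005, Gm13196 and Gm9457, and 26 bases in Rpl22l1. Rpl22-ps1 had 153, 155, 131 and 107 CPM in Crym KO IP 1 to 4, against 71.7, 70.4, 59.3 and 70.1 CPM in Control IP 1 to 4 (log2 fold change 0.99, SE 0.13, limma adjusted p = 0.00344). Gm13196 had 7.12, 5.91, 5.73 and 5.199 CPM in Crym KO IP 1 to 4, against 3.82, 3.28, 2.91 and 3.68 CPM in Control IP 1 to 4 (log2 fold change 0.80, SE 0.11, limma adjusted p = 0.00574). Both rose, by nearly the same factor as Rpl22. Gm9457 (log2 fold change 1.00, SE 0.18, limma adjusted p = 0.0610) and Gm12005 (log2 fold change 0.93, SE 0.17, limma adjusted p = 0.0776) had similar values but missed the threshold, and passed with the replicate number as a term in the fit (adjusted p = 0.0382 and 0.0324) and without Crym KO IP 4 (0.00437 and 0.0158). What a replicate number stands for is not given in the labels. The dissimilar Rpl22l1 had a log2 fold change of -0.07 (95% interval -0.35 to 0.22). Only uniquely mapped reads were counted, so reads that fit Rpl22 and a copy equally well do not enter these values, and which of the near-identical genes changed is uncertain.

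Nts, the precursor of the neuropeptide neurotensin, was the only gene beside Crym past the threshold with a fall of more than 2-fold. It had 5.71, 5.07, 5.19 and 4.81 CPM in Crym KO IP 1 to 4, against 11.97, 12.9, 9.22 and 11.1 CPM in Control IP 1 to 4. The groups did not overlap (log2 fold change -1.11, SE 0.14, limma adjusted p = 0.00344, 95% interval -1.41 to -0.81), and Input had a log2 fold change of -0.06. Senp7, a protease that trims SUMO chains from proteins, fell by a small factor. Senp7 had 24.6, 25.02, 24.7 and 23.9 CPM in Crym KO IP 1 to 4, against 30.4, 32.6, 28.4 and 27.9 CPM in Control IP 1 to 4, without overlap (log2 fold change -0.28, SE 0.05, limma adjusted p = 0.0482). That call was marginal: over 23 alternatives the adjusted p ran from 7.95e-05 to 0.9995 and missed the threshold in 14, with 0.165, 0.132, 0.153 and 0.186 when Crym KO IP 1, 2, 3 or 4 was left out and 0.134 and 0.114 without Control IP 1 or 2. The other 6 genes passed whichever single library was left out. Of the other 16 SUMO pathway genes none passed.

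**Figure D2:**
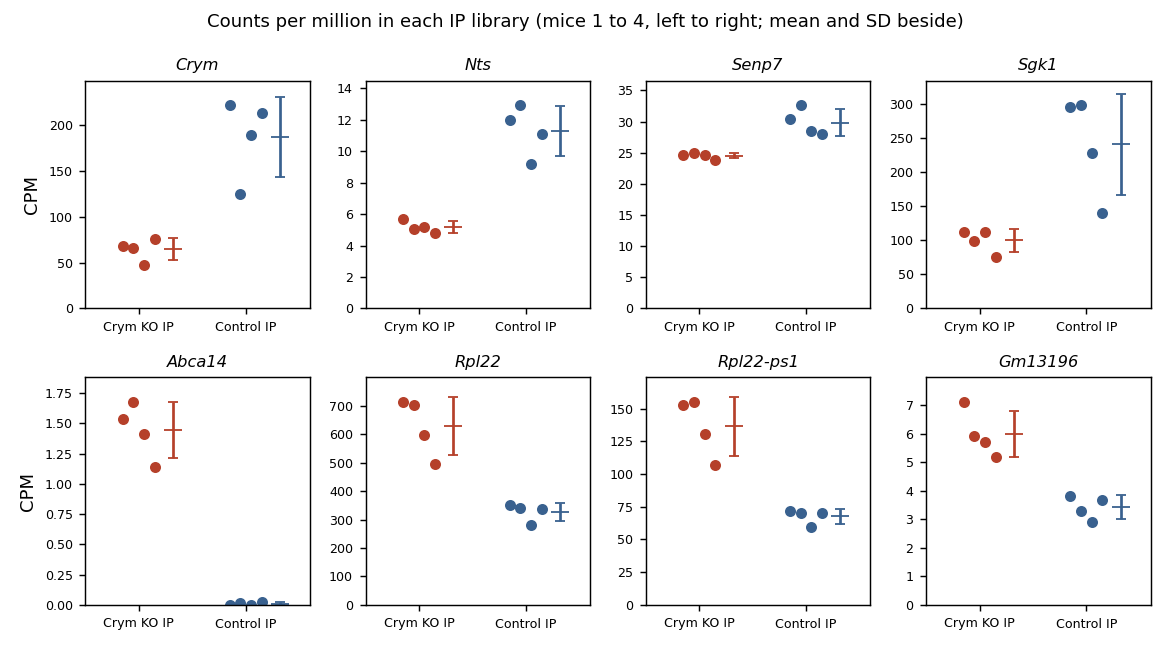
CPM in each IP library (points, mice 1 to 4 from left to right) with mean and SD beside, for 8 genes; Crym KO IP in red on the left of each panel, Control IP in blue. Crym, Nts, Senp7 and Sgk1 lie lower and Abca14, Rpl22, Rpl22-ps1 and Gm13196 higher in all 4 Crym KO IP libraries than in any Control IP library, and Sgk1 ranges from 140.2 to 297 CPM in Control IP.

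The 15 genes next to the threshold included, beside Gm9457 and Gm12005, Sgk1, a kinase that glucocorticoid hormones induce and that regulates ion channels and transporters. It had 112, 98.8, 113 and 76.0 CPM in Crym KO IP 1 to 4, against 296, 297, 227 and 140.2 CPM in Control IP 1 to 4. No library overlapped, but the adjusted p was 0.0610 (log2 fold change -1.22, SE 0.21). Sgk1 passed with the replicate number as a term (adjusted p = 0.000960), in edgeR (0.0352), in DESeq2 (7.44e-05) and without Control IP 4 (0.00127), and in 8 of 23 alternatives in all, with adjusted p up to 0.9995 among males alone. In Input its log2 fold change was -0.80 (limma adjusted p = 0.500). Axin2, a negative regulator and target of Wnt signalling, had 24.7, 26.6, 27.8 and 28.3 CPM in Crym KO IP 1 to 4, against 20.8, 22.5, 21.8 and 23.4 CPM in Control IP 1 to 4 (log2 fold change 0.28, SE 0.05, limma adjusted p = 0.0610, with the replicate term 0.00935). Rmrp, the RNA of a ribonuclease that cuts ribosomal RNA precursors, had 6.18, 8.61, 6.48 and 6.67 CPM in Crym KO IP 1 to 4, against 15.5, 18.1, 14.8 and 9.18 CPM in Control IP 1 to 4 (log2 fold change -1.03, SE 0.18, limma adjusted p = 0.0687, with the replicate term 0.0340).

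Cntnap1, a membrane protein of the paranode where myelin meets the axon, had 148, 145, 161 and 167 CPM in Crym KO IP 1 to 4, against 171, 199, 200.1 and 201 CPM in Control IP 1 to 4 (log2 fold change -0.31, SE 0.06, limma adjusted p = 0.109, with the replicate term 0.0381). Ddit4, a stress- and hormone-induced inhibitor of mTORC1, had 24.3, 24.98, 24.3 and 25.5 CPM in Crym KO IP 1 to 4, against 30.2, 32.8, 28.6 and 31.02 CPM in Control IP 1 to 4 (log2 fold change -0.30, SE 0.05, limma adjusted p = 0.0690, with the replicate term 0.0490). In both genes the groups were apart. Slc17a6, the vesicular glutamate transporter of thalamic neurons, had 4.80, 12.1, 8.07 and 9.21 CPM in Crym KO IP 1 to 4, against 37.2, 30.5, 15.04 and 22.7 CPM in Control IP 1 to 4 (log2 fold change -1.61, SE 0.35, limma adjusted p = 0.268, with the replicate term 0.0396). The other genes of this group were 9330102E08Rik (-0.36), the translation factor subunit Eif2b3 (-0.24), Tmem35a (-0.23), the chromatin remodeller Atrx (-0.35), Pidd1 (-0.60), Gm5829 (-0.67) and the histone methyltransferase Kmt2a (-0.24), with limma adjusted p of 0.115 for the first and 0.268 for each of the others. With the replicate term 9330102E08Rik (0.0346) and Atrx (0.0451) passed too, and the count of genes past the threshold was 43 (0.208%), 8 higher and 35 lower. Leaving out 1 library carried some of these genes past the threshold, with the adjusted p at 0.0200 for Axin2 without Crym KO IP 1 and 0.0196 without Control IP 4, 0.00127 for Rmrp and 0.0416 for Atrx without Control IP 4, 0.0499 for Ddit4 and 0.0499 for Slc17a6 without Control IP 3, and 0.00964 for Cntnap1 and 0.0455 for Kmt2a without Control IP 1. Over all alternatives the adjusted p of these genes ran from 1.16e-08 to 0.9995, and most alternatives missed the threshold. Of 23 alternatives each, Axin2 missed it in 16, Rmrp in 17, Cntnap1 in 17 and Atrx in 19. Ddit4 and Slc17a6 missed it in 20 and Kmt2a in 21.

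The genes with the lowest fold changes among those at 1 CPM or more without overlap had a wide spread in Control IP. Shox2, a transcription factor of the developing thalamus, had 0.156, 0.128, 0.207 and 0.0175 CPM in Crym KO IP 1 to 4, against 5.18, 2.70, 0.228 and 1.26 CPM in Control IP 1 to 4 (log2 fold change -3.76, SE 1.86, limma adjusted p = 0.658). Calb2, the calcium-binding calretinin of interneurons, had 3.59, 3.81, 3.79 and 4.39 CPM in Crym KO IP 1 to 4, against 6.49, 18.05, 6.81 and 17.6 CPM in Control IP 1 to 4 (log2 fold change -1.47, SE 0.43, limma adjusted p = 0.463, with the replicate term 0.0467). Other interneuron genes did not share this fall. Of 11 striatal interneuron markers, Calb2 among them, 8 were above 0 (51.4% of all genes), with a median of 0.18, or 0.06 without Control IP 2. The Calb2 values of the Crym KO IP libraries lay close together, and those of Control IP fell into a lower pair (1 and 3) and a higher pair (2 and 4). AW551984 (-1.45) and the prolactin receptor Prlr (-1.41) had the same pairs in Control IP, with Control IP 4 highest in both. Rasd1, a glucocorticoid-induced small GTPase, had a log2 fold change of -1.23 and passed without Control IP 3 (0.0425). Cdh23 had a log2 fold change of -1.21 and Gucy2c of -1.89, the last with 4.07 CPM in Control IP 4. Among the highest, after Abca14 and the Rpl22 copies, were the non-coding C920006O11Rik (0.61), Sypl2 (0.53) and Snhg18 (0.51). None of these passed in the main limma fit of all libraries, with adjusted p of 0.326 to 0.658. In DESeq2 Shox2 (adjusted p = 0.0249), Calb2 (0.00928), Rasd1 (0.000755), Cdh23 (0.0247) and Gucy2c (0.0231) passed.

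Genes were then read by role, with each list's count and median set against all genes (51.4% above 0, median 0.00387, 7.67% with an unadjusted p under 0.05). In the fit without Control mouse 4, 49.9% of all genes were above 0. There 9.71% had an unadjusted p under 0.05, 4.06% higher and 5.65% lower. No list of astrocyte functions had a member past the threshold. Of 20 astrocyte markers 19 were above 0, with a median of 0.12, and 2 had an unadjusted p under 0.05, or 7 with a median of 0.17 without Control mouse 4. The median was 0.03 without Control IP 2. Slc1a2, the main glutamate transporter of astrocytes, had 13686, 15397, 14493 and 16802 CPM in Crym KO IP 1 to 4, against 12827, 9821, 13738 and 14651 CPM in Control IP 1 to 4 (log2 fold change 0.25, SE 0.09, limma adjusted p = 0.549). The low value is that of Control IP 2. Of 16 astrocyte transcription factors all 16 were above 0 with a median of 0.18, and 7 had an unadjusted p under 0.05, among them Lhx2 (0.33), Nfib (0.18), Sox9 (0.30) and Sox2 (0.27), with limma adjusted p of 0.460 to 0.564. Their summed level was 1225, 1312, 1202 and 1369 CPM in Crym KO IP 1 to 4, against 1219.8, 934, 1171 and 1217 CPM in Control IP 1 to 4, so Control IP 2 was lowest here as well. Without 1 library at a time the median ran from 0.15 to 0.22. The summed level of astrocyte markers was 29473, 32138, 28549 and 33069 CPM in Crym KO IP 1 to 4, against 29324, 21804, 28415 and 30149.8 CPM in Control IP 1 to 4.

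Of 15 genes for potassium buffering, water and gap junctions 15 were above 0 with a median of 0.10, and 2 had an unadjusted p under 0.05, both potassium channels (Kcnk1 0.12 and Kcnk2 0.15). The median was 0.02 without Control IP 2. The inward rectifier Kcnj10 averaged 388 ± 61.6 CPM in Crym KO IP and 361 ± 44.3 CPM in Control IP (SD, n = 4 each). The 95% interval of its log2 fold change was -0.12 to 0.32, and that of the water channel Aqp4 -0.21 to 0.30. Of 17 G protein-coupled receptors 15 were above 0 with a median of 0.08 (0.13 without Control mouse 4), led by the sphingosine receptor S1pr1 (log2 fold change 0.24, SE 0.09, limma adjusted p = 0.550). Of 25 genes of calcium stores and calcium entry 20 were above 0 with a median of 0.05 (0.02 without Control mouse 4), and the main store channel Itpr1 had 0.13 (95% interval -0.03 to 0.28).

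Genes for transmitter handling held no member past the threshold. Of 13 glutamate uptake and glutamine cycle genes 8 were above 0 with a median of 0.09 (0.01 without Control mouse 4), and Slc38a2, a glutamine transporter, had -0.23 (limma adjusted p = 0.622). Of 15 GABA genes 9 were above 0 with a median of 0.02 (0.05 without Control mouse 4). Slc6a11, the GABA transporter GAT-3 of astrocytes, had 238, 354, 246 and 356 CPM in Crym KO IP 1 to 4, against 351, 237, 262 and 366 CPM in Control IP 1 to 4. Its libraries ran through the same range in both groups, with a 95% interval of -0.37 to 0.31. Abat, which breaks GABA down, had a narrower interval of -0.12 to 0.21. Maob, an enzyme in the route from putrescine to GABA, had -0.11 to 0.24.

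For the hormone that μ-crystallin binds, 22 genes of thyroid hormone transport, activation, receptors and cofactors were tested. Of these 18 were above 0 with a median of 0.07, 3 had an unadjusted p under 0.05 (the receptor cofactors Tbl1xr1 0.12, Ncor1 0.27 and Ncoa1 0.10) and none passed. Dio2, which makes T3 from T4 in astrocytes, had 276, 330.3, 317 and 327 CPM in Crym KO IP 1 to 4, against 293, 235, 306 and 306 CPM in Control IP 1 to 4 (95% interval -0.05 to 0.33). The intervals of the receptors Thra and Thrb were -0.07 to 0.19 and -0.01 to 0.29, and that of the transporter Slco1c1 was -0.06 to 0.38. Of 14 genes that T3 induces 11 were above 0 with a median of 0.04, and the lowest value was -0.59. In that list 1 gene had an unadjusted p under 0.05 and was lower (7.14%, against 7.67% of all genes). The groups did not overlap in 1 gene, which was lower, and none passed. Klf9 (-0.17 to 0.12) and Hr (-0.05 to 0.35), both direct targets of the thyroid hormone receptor, had intervals that include 0. Of 10 genes of lysine and ketimine metabolism, the other pathway of μ-crystallin, 6 were above 0 with a median of 0.04, and Aass, the first enzyme of lysine breakdown by way of saccharopine, had 0.19 (limma adjusted p = 0.570).

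The study's single-cell sequencing gave lists of genes higher or lower in Crym-positive than in other striatal astrocytes. Crym itself is not among the genes of the higher list counted here. Of 124 genes of the higher list 110 were above 0 with a median of 0.12, and 20 had an unadjusted p under 0.05, all of them higher, such as Dkk3 (0.18, limma adjusted p = 0.460) and Lhx2. Without Control mouse 4 the count was 34 with a median of 0.17, and without Control IP 2 the median was 0.02. None passed. Of 50 genes of the lower list 26 were above 0 with a median of 0.01, a sign that turned with library size scaling (-0.00583). In that list 9 genes had an unadjusted p under 0.05 and were lower, led by Tspan2 (-0.43), Arpc1b (-0.34), Mal (-0.35) and Cldn11 (-0.41), of which Mal and Cldn11 are also in the oligodendrocyte list, and 3 were higher, led by Thbs4 (0.56). Of 72 genes of proteins found near μ-crystallin 44 were above 0 with a median of 0.02, which turned to -0.00137 with library size scaling, and none passed. Cntnap1, which passed with the replicate term, is in that list.

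**Figure D3:**
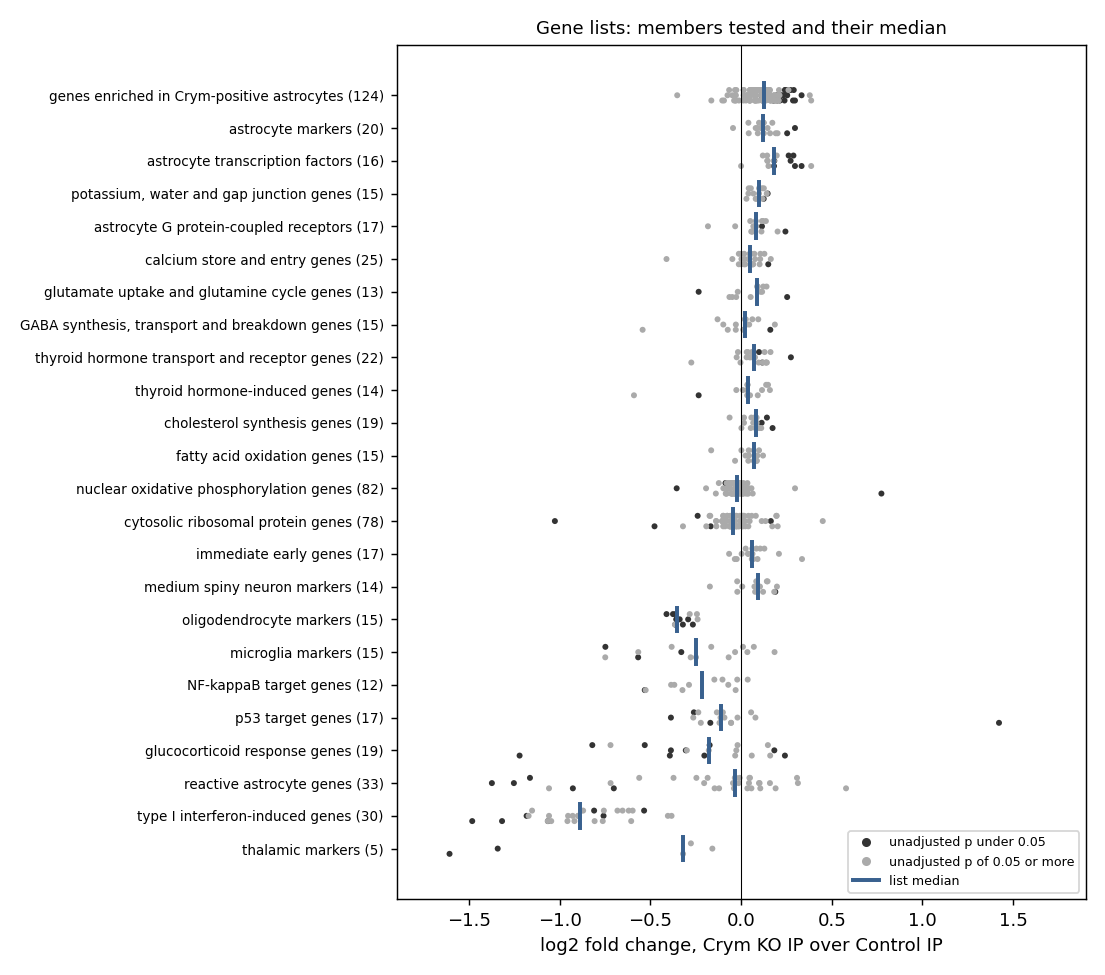
Log2 fold change in Crym KO IP over Control IP of each tested member (points) and the median (bar) of 24 gene lists, with the number of members in brackets; dark points have an unadjusted p under 0.05. Astrocyte markers (median 0.12) and astrocyte transcription factors (0.18) lie slightly above 0, while oligodendrocyte markers (-0.35) and interferon-induced genes (-0.89) lie entirely below 0.

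Genes that glucocorticoids induce, among them Sgk1 and Ddit4, were read as a further list. Of 19 such genes none passed, but 8 had an unadjusted p under 0.05 and were lower and 2 were higher (4.32% and 3.35% of all genes), with a median of -0.18 in IP and -0.30 in Input. With the replicate term 4 of the 19 passed, against 0.208% of all genes, and were lower: Sgk1, Nfkbia (adjusted p = 0.00935), Tsc22d3 (0.0324) and Ddit4. The labels do not state the pairing of mice that this term assumes. Nfkbia, the inhibitor of NF-κB, had 17.8, 18.5, 17.2 and 15.1 CPM in Crym KO IP 1 to 4, against 29.8, 27.2, 23.8 and 18.97 CPM in Control IP 1 to 4 (log2 fold change -0.53, SE 0.12, limma adjusted p = 0.268). Tsc22d3, known as the glucocorticoid-induced leucine zipper, had 137, 136, 114 and 106 CPM in Crym KO IP 1 to 4, against 189.8, 163, 149.6 and 145 CPM in Control IP 1 to 4 (log2 fold change -0.39, SE 0.10, limma adjusted p = 0.436). In neither gene did the groups overlap. Cdkn1a (-0.39), a cell cycle inhibitor, and Hif3a (-0.82), a hypoxia factor subunit, did not overlap either, with limma adjusted p of 0.460 and 0.478. Klf9 (-0.03), Per1 (-0.03) and Fkbp5 (-0.17), targets of the same receptor, lay closer to 0, and Mt1 had 0.24. The summed level was 1212, 1127, 1111 and 1070.3 CPM in Crym KO IP 1 to 4, against 1428, 1396, 1239 and 1171 CPM in Control IP 1 to 4, and only Crym KO IP 1, at 1212 CPM, lay above the lowest Control IP library. Without Control mouse 4 the median was -0.28 and 2 members, Sgk1 and Nfkbia, passed and were lower (0.268% of all genes in that fit). At an unadjusted p under 0.05, 8 of the 19 were lower and 2 higher there (5.65% and 4.06% of all genes).

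The glucocorticoid receptor binds pairs of half-sites, written here as GNACANNNTGTNC. In the 250 bases upstream of the start sites (RefSeq, GRCm38.p6), on either strand, this motif was found in 3 of the 18 genes of the list with a promoter entry (16.7%), against 45 of 12879 tested genes (0.349%). Because the list was chosen as genes that glucocorticoids induce, its higher share says nothing about the Crym KO effect. The Sgk1 match is shown because Sgk1 had the largest difference of the list, with the motif in capitals, beside those of Mt1 and Map3k6.
Sgk1 (chr10:21993692-21993724, gene on the + strand): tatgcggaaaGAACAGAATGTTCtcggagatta
Mt1 (chr8:94178985-94179017, gene on the + strand): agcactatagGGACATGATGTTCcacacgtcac
Map3k6 (chr4:133240627-133240659, gene on the + strand): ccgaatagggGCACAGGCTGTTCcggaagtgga
The match in Sgk1 starts 188 bases before the start site. Mt1 and Map3k6 hold a match as well but had log2 fold changes of 0.24 and 0.15, so genes with the motif did not share a direction.

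Interferon-induced genes, which encode antiviral proteins, were lower throughout. All 30 members had a log2 fold change below 0, with a median of -0.89 in IP and -0.83 in Input, 7 reached an unadjusted p under 0.05, and no member passed. Their summed level was 1084, 1294, 501 and 470.3 CPM in Crym KO IP 1 to 4, against 2578, 1374, 1407 and 553 CPM in Control IP 1 to 4. The groups overlapped, since Control IP 4 was near the lowest Crym KO IP libraries. Isg15, a ubiquitin-like protein, had 7.78, 8.16, 2.83 and 1.75 CPM in Crym KO IP 1 to 4, against 19.8, 12.01, 10.5 and 2.503 CPM in Control IP 1 to 4 (log2 fold change -1.15, SE 0.61, limma adjusted p = 0.687). Oas1a, a sensor of double-stranded RNA, had 5.19, 6.31, 1.5 and 1.30 CPM in Crym KO IP 1 to 4, against 14.7, 8.61, 7.65 and 2.10 CPM in Control IP 1 to 4 (log2 fold change -1.32, SE 0.59, limma adjusted p = 0.630). With the replicate term Isg15 (0.00935), Mx1 (0.0340), Oas1a (0.0382) and Ifi35 (0.0451) passed, against 0.208% of all genes. Without Control mouse 4 the median was -1.32, 29 of 30 had an unadjusted p under 0.05 (5.65% of all genes were lower at that threshold in this fit) and 3 passed (Parp14, Ifi35 and Zbp1). That fit drops the Control IP library whose sum overlapped, so a larger difference there is built in. Without Control IP 1 the median was -0.50.

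The interferon response element GAAANNGAAA, searched on either strand of the same windows, was in 9 of the 20 listed genes with a promoter entry (45%), against 415 of 12879 tested genes (3.22%). The list was chosen as interferon-induced genes, so its higher share says nothing about the Crym KO effect. One match each is shown for 3 members with low values in Crym KO IP, read along the gene's strand, with the motif or its reverse complement in capitals.
Isg15 (chr4:156200871-156200900, gene on the - strand): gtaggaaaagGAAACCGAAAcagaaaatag
Oas1a (chr5:120907526-120907555, gene on the - strand): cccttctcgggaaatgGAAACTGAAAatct
Ifit1 (chr19:34640775-34640804, gene on the + strand): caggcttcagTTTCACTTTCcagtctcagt
The Isg15 match starts 72, the Oas1a match 14 and the Ifit1 match 104 bases before the start site. Isg15 held 3 and Oas1a 2 matches that overlap one another, and Ifit1 held 2 that do not. Ifit1 had a log2 fold change of -0.95 (-2.20 to 0.30).

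**Figure D4:**
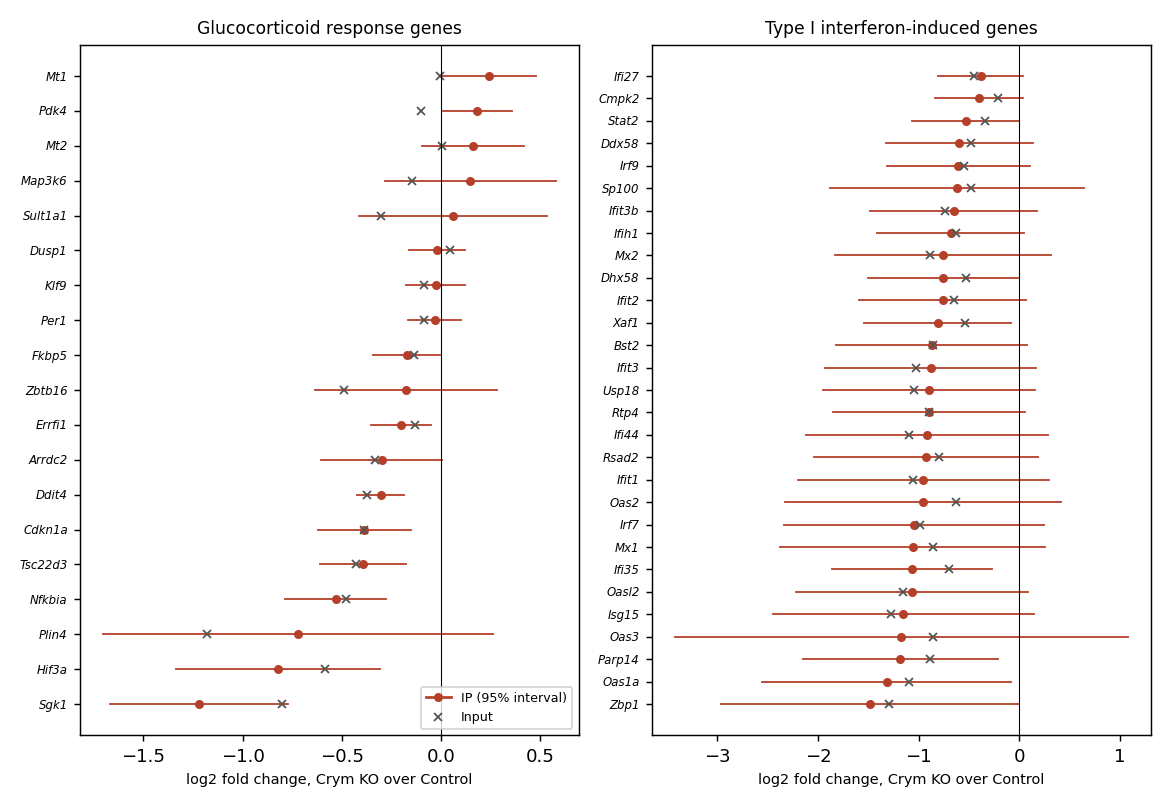
Log2 fold change in Crym KO IP over Control IP with its 95% interval (points and bars) of 19 glucocorticoid response genes and 29 of the 30 interferon-induced genes, with the value in Input as crosses. The interferon-induced genes shown all lie below 0 with wide intervals, and the glucocorticoid response genes run from Sgk1 at -1.22 to Mt1 at 0.24.

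In the fit without both libraries of Control mouse 4, 61 genes passed of 20886 (0.292%), 5 higher (0.0239%) and 56 lower (0.268%), and all 7 genes named above were among them. Among the 56 were genes of interferon-induced GTPases and of antigen presentation, named here after their values were seen: Gbp4 (-2.36), Tgtp1 (-2.26), Ifi47 (-2.26) and H2-Q7 (-1.64). In the 8 libraries Gbp4 had 7.65, 15.97, 3.91 and 3.80 CPM in Crym KO IP 1 to 4, against 29.6, 26.4, 46.1 and 4.66 CPM in Control IP 1 to 4, and Control IP 4 lay within the Crym KO IP range. Of these 4 genes H2-Q7 also passed in the 16 libraries with the replicate term (0.0106). Without Control IP 4 alone 36 genes passed, 5 higher and 31 lower. Control IP 4 was also the library with high midbrain dopamine neuron and choroid plexus genes, and the part of either in these counts was not tested.

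Other stress and immune lists had no member past the threshold in the main limma fit of all libraries. Of 33 reactive astrocyte genes 13 were above 0 with a median of -0.03, which ran from -0.21 to 0.11 without 1 library at a time. The 5 with an unadjusted p under 0.05 were all lower and were immune genes, Serping1 (-0.93), H2-T23 (-1.25), Psmb8 (-1.16), H2-D1 (-0.70) and Iigp1 (-1.37). Without Control mouse 4, 9 of the 33 were above 0 with a median of -0.14, 8 were lower at an unadjusted p under 0.05, and H2-T23, Psmb8 and Iigp1 passed. Gfap, the intermediate filament that marks reactive astrocytes, had 1219.6, 1404, 761 and 946 CPM in Crym KO IP 1 to 4, against 1372, 994, 1120.4 and 913 CPM in Control IP 1 to 4 (95% interval -0.39 to 0.30). Of 12 NF-κB targets 1 was above 0 with a median of -0.22, and 1, Nfkbia, had an unadjusted p under 0.05, and passed without Control mouse 4. The median ran from -0.36 to -0.00244 without 1 library at a time. Of 17 p53 targets 3 were above 0 with a median of -0.11 (-0.04 without Control IP 1). The p53 list held the secreted Gdf15 at 0.565 CPM in Crym KO IP and 0.221 CPM in Control IP (log2 fold change 1.42, SE 0.35, limma adjusted p = 0.345). Of 17 immediate early genes 14 were above 0 with a median of 0.06, and none had an unadjusted p under 0.05. In the unfolded protein response list 12 of 21 were above 0 with a median of 0.00455, which turned to -0.0147 with library size scaling. There Herpud1 (-0.17), Edem1 (-0.25), Hspa5 (-0.13) and Xbp1 (-0.14) were lower and Trib3 (0.89) higher at an unadjusted p under 0.05.

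Markers of other cells that the pull-down could hold were read in the same way. All 15 oligodendrocyte markers were below 0 with a median of -0.35 in IP and 0.02 in Input, 11 of them with an unadjusted p under 0.05. Mbp, a main myelin protein, had -0.27, and Myrf, the myelin transcription factor, -0.36 (0.460 as limma adjusted p). None passed. The summed level was 5338, 6266, 4007 and 5026 CPM in Crym KO IP 1 to 4, against 7909, 5976, 6101 and 5281 CPM in Control IP 1 to 4, with Control IP 1 highest and the groups overlapping. Without Control mouse 4 the median was -0.45 and 15 of 15 had an unadjusted p under 0.05. Without Control IP 1 it was -0.21. The medians of oligodendrocyte markers and of the astrocyte lists thus lay on opposite sides of 0 in IP, and their part in the small positive medians of those lists was not tested.

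Of 14 medium spiny neuron markers 11 were above 0 with a median of 0.09 (0.16 without Control mouse 4). All 8 cortical glutamatergic markers were above 0 with a median of 0.36, none had an unadjusted p under 0.05, and without Control mouse 4 the count was 7 and the median 0.13. All 5 thalamic markers, Slc17a6 among them, were below 0 with a median of -0.32 in IP and -0.92 in Input. Their summed level was 35.2, 44.9, 40.4 and 43.7 CPM in Crym KO IP 1 to 4, against 146, 93.7, 45.5 and 64.7 CPM in Control IP 1 to 4, and the groups did not overlap. The median was -0.15 without Control IP 1. In microglia markers, all at low levels in IP, 4 of 15 were above 0 with a median of -0.25. In mural cell markers 8 of 10 were above 0, with Pdgfrb at 0.39 and Vtn at 0.30, and in endothelial markers 3 of 14, with Itm2a at -0.41. Ependymal (10 of 10 below 0, median -0.20, but 0.06 without Control IP 1) and choroid plexus markers (8 of 8 below 0, median -0.55) lay on the same side, with choroid plexus markers highest in Control IP 4 and a median of -0.33 without that mouse. None of these genes passed.

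**Figure D5:**
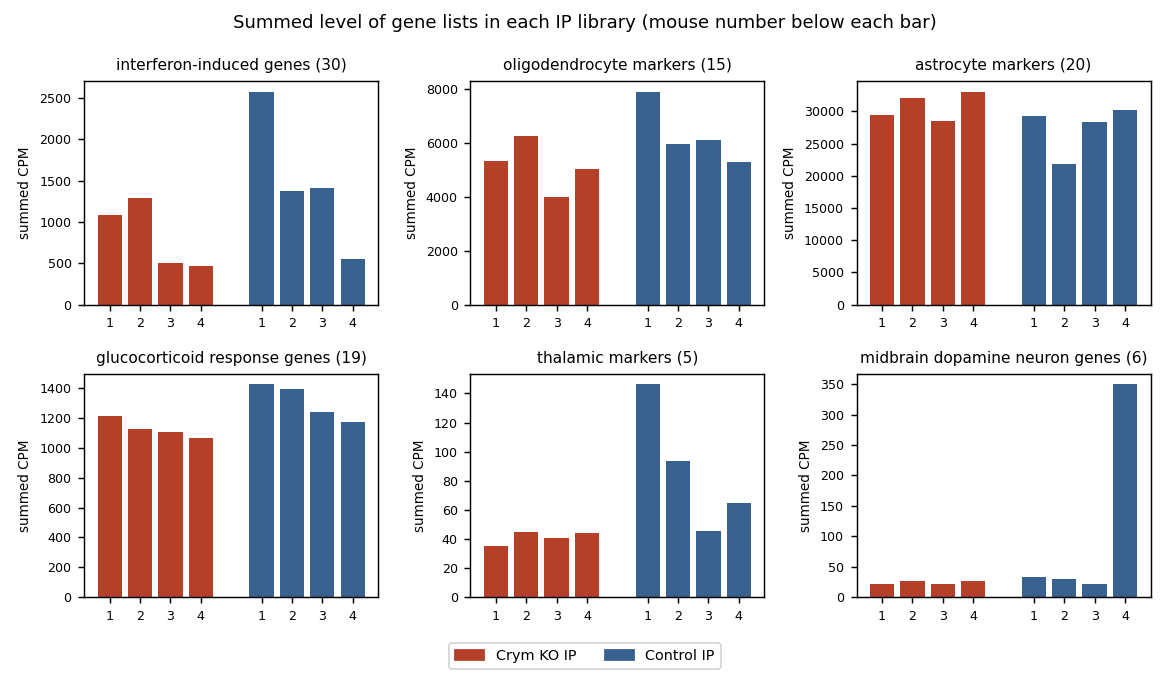
Summed CPM of 6 gene lists in each of the 8 IP libraries (bars, axes from 0), Crym KO IP left of Control IP. Control IP 1 holds the most interferon-induced (2578 CPM) and oligodendrocyte RNA (7909 CPM), and Control IP 4 holds 350.0 CPM of midbrain dopamine neuron genes against at most 33.6 CPM elsewhere.

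Among 16 neuropeptide precursors 5 were above 0 with a median of -0.10. Nts passed, and 5 others were lower at an unadjusted p under 0.05, all at low levels: Pnoc, the nociceptin precursor (-0.70), Gal (-2.13), Cartpt (-0.97) and Tac2 (-1.24) were among them. Pnoc had 1.29, 1.72, 1.47 and 1.70 CPM in Crym KO IP 1 to 4, against 2.15, 2.99, 2.11 and 2.87 CPM in Control IP 1 to 4 and passed with the replicate term (0.0324). Npy (0.24) was higher, and Penk (-0.02), the most abundant precursor, and Sst (0.16) lay near 0 or above it. Their limma adjusted p were 0.336 and higher.

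Metabolic lists had medians close to 0 and no member past the threshold. Of 19 cholesterol synthesis genes 18 were above 0 with a median of 0.08, and Hsd17b7 (0.17) and Msmo1 (0.11) were among those that had an unadjusted p under 0.05. Fatty acid oxidation genes (13 of 15 above 0, median 0.07) were on the same side. Of 82 nuclear oxidative phosphorylation genes 20 were above 0 with a median of -0.02, and of 78 ribosomal protein genes 25 with a median of -0.04. Rpl3 (-0.17, limma adjusted p = 0.460) had the smallest p among the ribosomal genes, far from the threshold. Glycolysis genes had 14 of 24 above 0 and a median of 0.01, which turned to -0.00437 with library size scaling.

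Among genes that shape synapses, 12 of 17 secreted and matrix genes of astrocytes were above 0 with a median of 0.09 (0.02 without Control IP 2). Thbs4, a thrombospondin, had 93.9, 58.2, 43.4 and 78.5 CPM in Crym KO IP 1 to 4, against 46.4, 33.3, 38.8 and 66.8 CPM in Control IP 1 to 4 (log2 fold change 0.56, SE 0.21, limma adjusted p = 0.569), and Chrdl1, which promotes synapse maturation, 0.28. Thbs4 was lowest in Control IP 2. Of 40 glutamate and GABA receptor subunits 23 were above 0 with a median of 0.04. Of 19 presynaptic release genes 15 were above 0 (78.9%, against 51.4% of all genes) with a median of 0.04. Without Control mouse 4 the presynaptic count was 10 and the median 0.00325. Of 12 Wnt feedback genes 8 were above 0, with Tnfrsf19 at 0.21 beside Axin2. Of 7 structured small RNAs 1 was above 0 with a median of -0.22, Rmrp among those below. Of 9 nuclear long non-coding RNAs 1 was above 0, with Malat1 at -0.25 (limma adjusted p = 0.621), and of 12 mitochondrial mRNAs 10 were above 0 with a median of 0.16 (-0.01 without Control IP 2) and none at an unadjusted p under 0.05.

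Whether an effect belonged to the astrocyte-rich RNA was tested by comparing the Crym KO effect of the IP libraries with that of the Input libraries in 1 model. In limma no gene passed of 20645 (0%), with 704 at an unadjusted p under 0.05 (3.41%). Without Control mouse 4, 1 gene passed, Rmrp (difference -1.02, adjusted p = 0.00793). The pull-down lowered Rmrp strongly (log2 of IP relative to Input -5.98), so its IP level is a small remainder of that in Input. With all libraries edgeR called 0 (714 at an unadjusted p under 0.05) and DESeq2 2. None of the 7 genes can thus be called particular to the IP RNA by limma with all libraries. Their log2 fold changes in Input were -0.34 for Crym, -0.06 for Nts, -0.03 for Senp7, 0.23 for Rpl22, 0.50 for Rpl22-ps1, 0.57 for Gm13196 and 4.80 for Abca14, and among these only Abca14 passed in Input. The difference of the effects in females and males was tested in the 8 IP libraries, 2 against 2 mice in each sex. Of 18161 genes 1 passed (0.00551%). That was Uggt2, a glucosyltransferase of glycoprotein folding in the endoplasmic reticulum. Uggt2 had 22.9, 23.6, 36.4 and 38.5 CPM in Crym KO IP 1 to 4, against 37.2, 38.5, 24.5 and 24.8 CPM in Control IP 1 to 4. The Crym KO effect was -0.71 in females and 0.60 in males on the log2 scale (adjusted p = 0.0258). Input had the same order, with 38.0, 39.5, 72.6 and 66.0 CPM in Crym KO Input 1 to 4, against 64.2, 64.8, 37.1 and 37.5 CPM in Control Input 1 to 4. Mice 1 and 2 of each group were the females, so sex cannot be told apart here from replicate number.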

How the data were processed

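RNA-seq was run on 16 libraries, IP and Input RNA from 8 mice, each group holding 4 separate mice, and sequenced as 1 pool. Per the labels and the study's methods, the authors made ribosomal RNA-depleted TruSeq libraries, sequenced paired ends, converted the files with bcl2fastq 2.17, aligned to mm10 (GRCm38) with STAR, and counted uniquely mapped reads per gene with HTSeq. The deposited values are whole-number counts for 48795 gene IDs, of which 48435 matched the annotation. The other 360 held 0.0765% of counts and were kept. The strand setting of the counting is not given in the sources used here, and the gene model is uncertain, so antisense and overlapping genes cannot be told apart.

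Counts were fitted with limma 3.58.1 (voom) in R 4.3.3, with 4 group means over all 16 libraries, TMM scaling and filterByExpr of edgeR 4.0.16, a two-sided moderated test, Benjamini-Hochberg adjustment over 20645 genes and a threshold of 0.05. A log2 fold change is Crym KO over Control. CPM used TMM-corrected library sizes. IP libraries held 52632309 to 62596661 counts. Replicate libraries differed by more than counting noise. The script was tested on simulated data. Alternatives were edgeR's quasi-likelihood test, DESeq2 1.42.0, other scalings and filters, the IP libraries alone, sex, the replicate number or the mouse as a term, quality weights, each sex alone, and leaving out each IP library. Leaving out Control mouse 4 or 1 was added after seeing the data. Gene lists had no test. Counts and medians over a list stand beside those over all genes. The members, lists and tests were chosen with earlier results of these data known.

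Genes are named by rule: Crym, Abca14 and Rpl22, every gene past the threshold, the 15 next by p, the 10 highest and 10 lowest fold changes at 1 CPM or more without overlap, and in each list up to 5 members by p and 3 by level. Other genes were named after their values were seen. Some genes that the rule names are not reported here. Replicate numbers are those of the library titles and are shared by both groups. The labels do not say what a number stands for, so fits with it as a term rest on an assumed pairing. Deviations from the group means correlated between libraries of the same number at 0.429, 0.242, 0.423 and 0.619 for numbers 1 to 4 over 14641 genes, and at 0.369, 0.0058, 0.313 and 0.565 over the 14071 autosomal genes among them. The mice of a number are different animals of the same sex, and sex was read from Xist and Ddx3y counts because the labels do not give it. Coding sequences came from GENCODE and upstream sequences from RefSeq (GRCm38.p6).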

Additional observations from a re-analysis of the deposited data

Results flagged for a closer look

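In 118 groups of 4 libraries, 6 held a value set apart from the other 3 by a gap beyond the 95% limit, and chance alone gives about 1 in 20. Rpl22-ps1 was at 59.3 CPM in Control IP 3, against 70.1 to 71.7 CPM in the other Control IP libraries. Cntnap1 was at 171 CPM in Control IP 1, against 199 to 201 CPM. Gucy2c was at 4.07 CPM in Control IP 4, against 0.374 to 0.509 CPM. Choroid plexus markers summed to 178 CPM in Control IP 4, against 15.6 to 29.8 CPM, and midbrain dopamine neuron genes, a list chosen after the values were seen, to 350.0 CPM, against 21.9 to 33.6 CPM. Astrocyte transcription factors summed to 934 CPM in Control IP 2, against 1171 to 1219.8 CPM. Of these 6 values, 3 belong to Control IP 4.

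Uggt2 was the only gene whose Crym KO effect differed between the sexes in limma (female minus male -1.31 on the log2 scale, adjusted p = 0.0258), with an effect of -0.71 in females and 0.60 in males. Sex and replicate number cannot be told apart in these mice, and the Input libraries had the same order of values.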

How the results depend on the processing

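Against 7 genes past the threshold in limma, edgeR called 9 and DESeq2 71, all 7 among them in both. Fits of the 8 IP libraries alone gave 2 genes, of females alone 3 and of males alone 0 in limma (823 at an unadjusted p under 0.05), with fewer libraries in each. A sex term gave 15 genes. The replicate block, that is the replicate number as a term, gave 43 and still held all 7. Xist, used above to read sex, passed in limma with the block (log2 fold change -1.05, adjusted p = 0.000664), against an adjusted p of 0.986 in the main fit. Beyond Xist and the genes given with it above, the block changed no call named in the report. Leaving out 1 IP library gave 6 to 36 genes, 11 without Control IP 3 and 36 without Control IP 4, and leaving out both libraries of Control mouse 4 gave 61. The cause was not tested. The log2 fold change of Crym was -1.52 in the 8 IP libraries alone, -1.31 in females and -1.74 in males, where it missed the threshold. For the difference between IP and Input, DESeq2 called 2 genes. Of the fold changes of single named genes under the alternatives, 670 kept their side of the threshold, 59 gained and 29 lost it, and none reversed. Of list medians 742 stayed within the spread of replicates and 12 moved. With 4 mice a group, 37.5% of genes under 1 CPM had a 95% interval within 2-fold in either direction.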
